A study of Homo sapiens with 8 samples.

Results

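Lamins, the lamin B receptor and the SUN proteins build the inner face of the nuclear envelope, and CTCF and cohesin fold the chromatin inside it. The 10 genes examined here are LMNA, LMNB1, LMNB2, LBR, SUN1, SUN2, CTCF, RAD21, STAG1 and SMC3. All accessible regions within 20 kb of each gene were taken from 8 ATAC-seq peak lists and merged across the lists where they overlapped by at least 1 bp. This yielded 135 regions of 285909 in the whole series.

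A-type lamins, made from LMNA, and B-type lamins, made from LMNB1 and LMNB2, form the nuclear lamina, a protein meshwork that holds heterochromatin at the nuclear edge. LBR is an inner membrane protein that binds B-type lamins and heterochromatin, and SUN1 and SUN2 connect the lamina with the cytoskeleton. Cohesin, a ring of SMC1A, SMC3 and RAD21 with a STAG subunit, extrudes DNA loops until it meets CTCF, a zinc finger protein bound to its own motif. Tissues are known to differ in their lamins: A-type lamins are scarce in pluripotent cells and rise with differentiation, and LMNA mutations cause cardiomyopathy.

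ATAC-seq reports accessible DNA through adapter insertion by the Tn5 transposase. Every stage came from RUES2, a human embryonic stem cell line in wide use, grown on a laminin matrix. Cells labelled hESC were taken on day 0, after a day with CHIR-99021, an activator of Wnt signalling, and before the switch to differentiation medium. Mesoderm (MES) was taken on day 2 in medium with CHIR-99021, cardiac progenitors (CP) on day 5 after the Wnt inhibitor Xav-939, and cardiomyocytes (CM) on day 14 after both agents had been withdrawn. Each stage had 2 libraries, numbered replicates 1 and 2. Whether these came from separate cultures is not given for this assay, so p-values measure only the spread between these libraries, which may be technical. Bulk libraries hold all cells of a dish, and a share of cells with an open site cannot be told apart from the degree of opening per cell.

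The lists held 55777 to 156179 peaks on chromosomes 1 to 22 and X, from an estimated 34.3 to 62.3 M reads. The shortest list and the fewest reads belonged to CM replicate 2. Stage markers were only in part in their places. Of the hESC markers, NANOG, a pluripotency factor, had a listed start region in the hESC and MES libraries alone, DPPA4 in 6 libraries (all but CM) and L1TD1 in 7. The mesoderm genes TBXT, MIXL1, EOMES and MESP1 were listed in all 8. Of the progenitor markers, ISL1 and HAND1 were listed in all 8, GATA4 in 7 and TBX5 in both CM libraries alone. Of the cardiomyocyte markers, TNNT2 and MYH6, genes of the sarcomere, were listed in CP replicate 2 and both CM libraries, whereas ACTN2 and NKX2-5 were listed in all 8. The hESC marker POU5F1 and the cardiomyocyte marker MYH7 had a listed start region in 0 libraries. Among markers of other cells, KDR, SOX17 and SOX1 were listed in all 8 libraries, FOXA2 and PAX6 in 7, COL1A1 in 4, PECAM1 in 1, and CDH5 and POSTN in 0. Because each value is a fold of the highest pileup in a region over its local background, and is absent where a peak missed the q-value threshold of the authors, an unlisted region is not shown to be closed.

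Of the 135 regions, 29 were listed in all 8 libraries, which is 21.5% against 9.83% of all merged regions, and 52 were listed in 1 library, which is 38.5% against 40.7%. The regions listed numbered, by stage, hESC 55 and 84, MES 60 and 79, CP 58 and 67, and CM 53 and 38. The shortest list, CM replicate 2, held the fewest, and the longest pair, replicate 2 of hESC and MES, held the most. Main promoters, within 500 bp of the start of the MANE Select transcript (the reference transcript of a gene), made up 10 of the regions and 9 of these were listed in all 8 libraries. The corresponding numbers were 5 of 11 at other starts of the same gene, 6 of 15 at starts of neighbouring genes, 3 of 51 elsewhere inside the genes and 6 of 48 in the flanks. Over the genome, 81.7% of regions at MANE Select starts and 5.94% of other regions were listed in all 8.

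**Figure D1:**
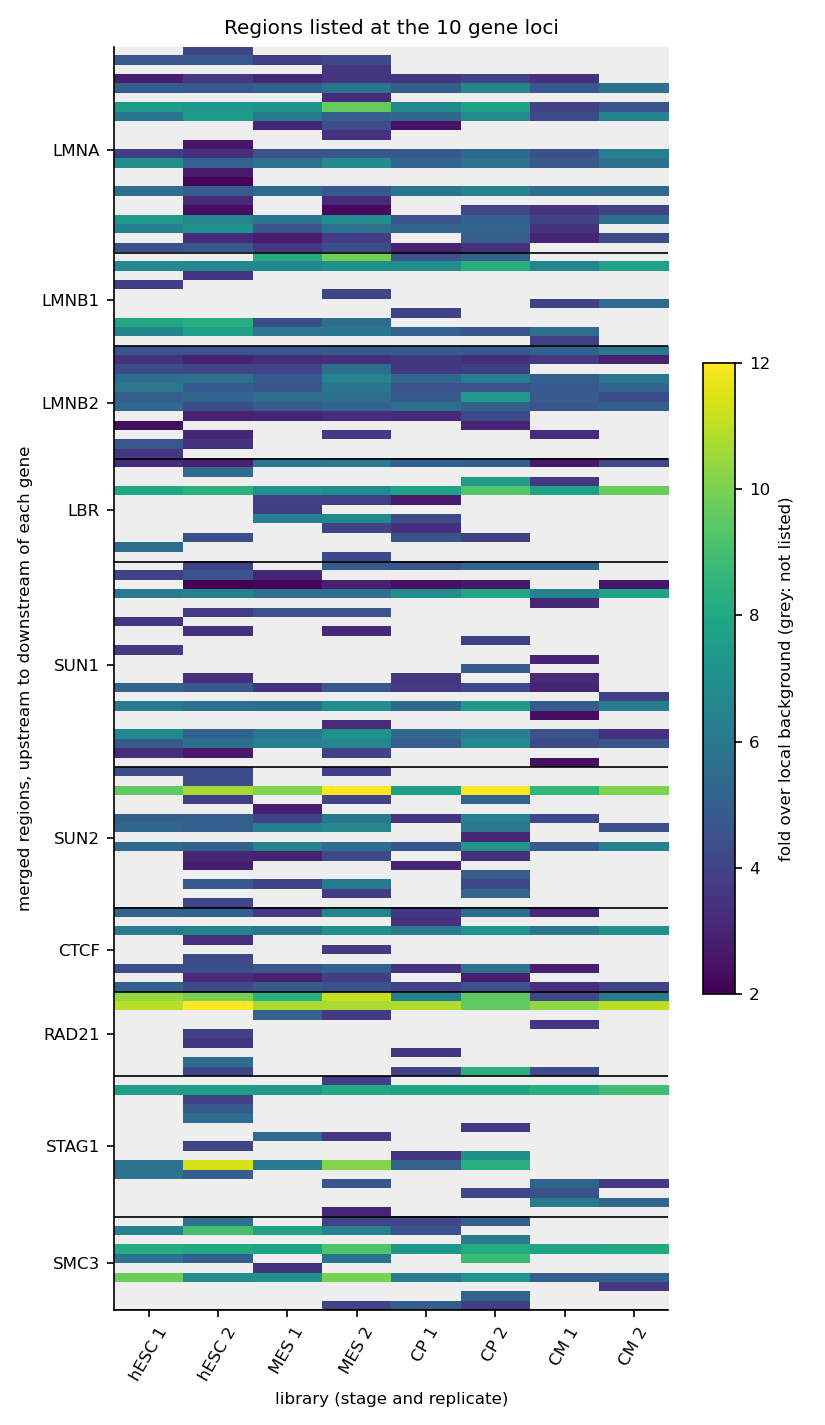
Fold over local background in the 8 libraries (columns) for the 135 regions (thin bands), grouped by gene and ordered from upstream to downstream, with unlisted values in grey. Few bands run unbroken across all columns, and most of the 52 regions listed in 1 library appear as short dashes.

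The main promoters of 9 of the 10 genes were listed in every library of every stage. Of the 10 main promoters, 9 were listed in all 8 libraries with folds of 4.38 to 12.5 from pileups of 32 to 173 reads, and limma called 0 of these 9 in any pair of stages tested (1 in CM against hESC, 1 in MES against hESC, 1 in CP against MES and 4 in CM against CP had an unadjusted p under 0.05). Of all regions at MANE Select starts, 7.62%, 0.05%, 0.0333% and 0.367% were called in the same order. Such low shares mean that 0 of 9 does not set these promoters apart. A region was tested where all 8 libraries listed it, with limma on log2 folds centred on the median of each library, and called at an adjusted p under 0.05 after Benjamini-Hochberg adjustment over all 28115 such regions. Folds printed by library are not centred. The order and overlap of stages are described on them unless stated otherwise, and can differ after centring.

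The LMNA main promoter (chr1:156114146-156115604) had folds of hESC 6.92 and 5.14, MES 5.76 and 6.77, CP 5.20 and 5.80, and CM 4.79 and 5.64, and the stages overlapped. The CM minus hESC difference in centred log2 fold was 0.02 (SE 0.18), and it turned to -0.20 without centring. At LMNB1 (chr5:126776484-126778777), which encodes lamin B1, folds were hESC 6.73 and 6.65, MES 6.66 and 7.10, CP 6.92 and 8.25, and CM 6.56 and 7.73. At LMNB2 (chr19:2455603-2457344), which encodes lamin B2, they were hESC 5.03 and 5.33, MES 5.60 and 5.57, CP 4.82 and 7.38, and CM 4.86 and 4.38. On these uncentred folds LMNB1 ran from 6.56 to 8.25 with overlapping stages, and LMNB2 was higher in CP replicate 2 than in any other library. After centring, on the log2 scale, both LMNB1 values in CM (2.96 and 3.12) lay above all others, of which CP replicate 1 (2.88) was the highest.

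LBR (chr1:225427380-225428820) gave hESC 7.98 and 8.37, MES 7.07 and 6.88, CP 7.80 and 9.27, and CM 7.79 and 9.66, with both MES values below all the others. The SUN2 promoter (chr22:38755214-38756451) gave hESC 5.45 and 5.09, MES 6.50 and 5.56, CP 4.66 and 7.24, and CM 4.85 and 6.43, and its stages overlapped, with CP holding both the lowest and the highest value. Among the loop genes, CTCF (chr16:67561622-67563641) had promoter folds of hESC 6.17 and 6.55, MES 5.93 and 7.03, CP 6.26 and 7.25, and CM 5.94 and 7.07. No stage lay apart from the rest on these uncentred folds. After centring, on the log2 scale, both CM values (2.82 and 2.99) lay above all others, of which CP replicate 1 (2.74) was the highest.

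RAD21 (chr8:116874022-116875161), the subunit that is cut to open the cohesin ring, had the highest promoter fold of the 9 genes in each of the 8 libraries, with hESC 10.9 and 12.5, MES 10.7 and 10.7, CP 10.8 and 9.55, and CM 10.3 and 11. SMC3 (chr10:110567130-110568637), one of the long arms of the ring, had hESC 8.19 and 8.07, MES 7.79 and 9.24, CP 7.30 and 8.12, and CM 7.85 and 8.09. STAG1 (chr3:136751375-136753166), which joins the ring to chromatin, had hESC 7.61 and 7.58, MES 7.31 and 8.13, CP 7.78 and 7.83, and CM 8.30 and 8.92. For STAG1 both CM values lay above all 6 others, and the CM minus hESC difference of 0.40 (SE 0.15) had an adjusted p of 0.0881 by limma. This order was not particular to STAG1. After centring, both CM values also lay above all 6 others at LMNB1, LBR, CTCF and SMC3. At RAD21 they did so only narrowly (3.61 and 3.63, with hESC replicate 2 at 3.61). They did not at LMNA, LMNB2 and SUN2.

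Over the 9 promoters the median CM minus hESC difference was 0.25 (0.02 to 0.40, all 9 above 0), beside a median of 0.20 over all MANE Select start regions tested and 0.10 over all regions tested. The folds of CM libraries were lower in general, with a shift in the medians of -0.22 on the log2 scale, and centring removes this shift. Without centring the median of the 9 was 0.028. The background taken also mattered: with the pileup divided by the lowest background of the library in place of the local one, 4 of the 9 promoters were called higher in CM, where 24.2% of all MANE Select start regions were, namely STAG1 (0.69, adjusted p = 0.00266), SMC3 (0.59, 0.00219), LBR (0.48, 0.0259) and CTCF (0.40, 0.0496), while LMNA and LMNB2 turned to -0.11 and -0.08. The range across stage means had a median of 0.34 over the 9 promoters, beside 0.32 over all MANE Select start regions.

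**Figure D2:**
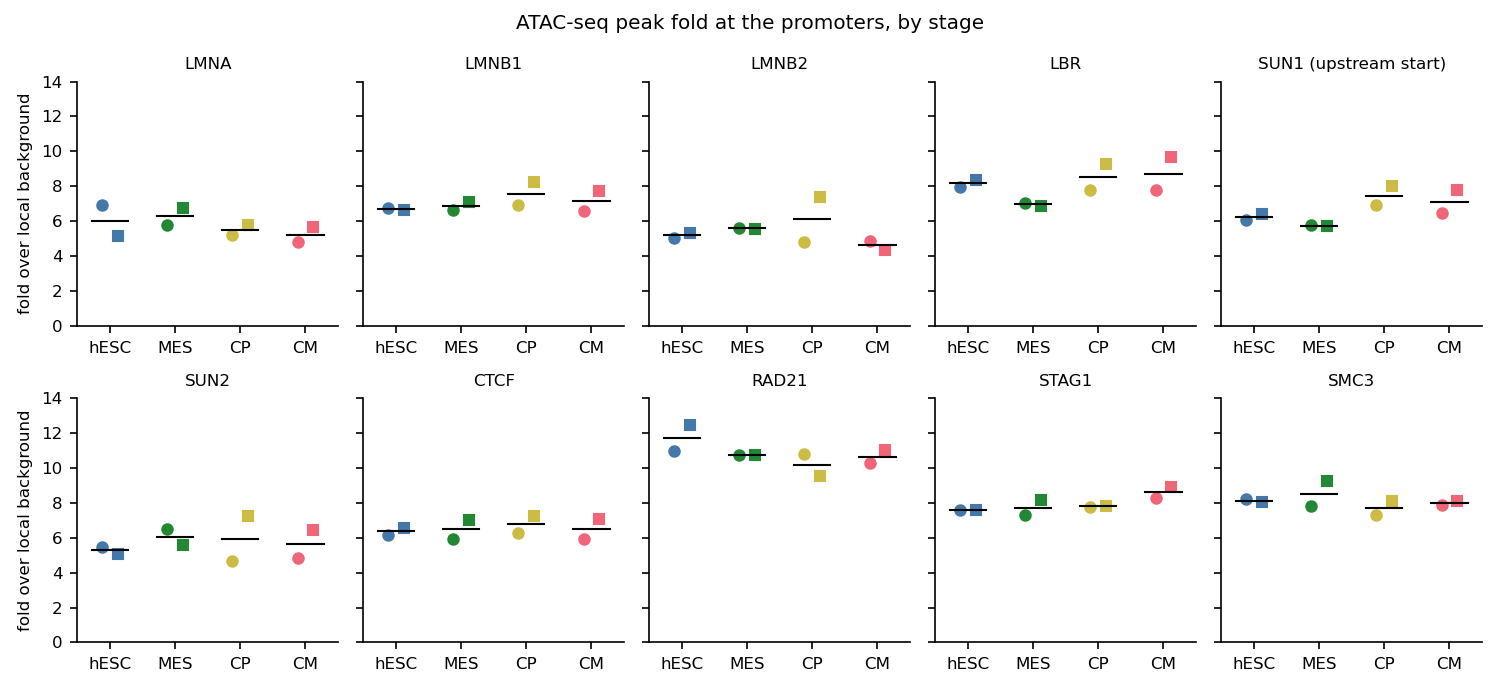
Fold over local background (vertical axis, from 0) at the main promoters of 9 genes and the upstream start of SUN1, by stage; circles are replicate 1, squares replicate 2 and bars the mean of both. RAD21 stands highest, between 9.55 and 12.5, and the stages of most genes overlap.

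SUN1 was the exception among the main promoters. Its MANE Select start region (chr7:832316-832550) was listed in CM replicate 1 alone, with a fold of 3.01. A region 15.9 kb upstream (chr7:815686-817398), at the starts of 9 other SUN1 transcripts of which 7 are protein-coding, was listed in all 8 libraries. Folds there were hESC 6.06 and 6.39, MES 5.77 and 5.70, CP 6.93 and 7.99, and CM 6.46 and 7.79. Both CM values exceeded both hESC values, and the difference of 0.41 (SE 0.16) had an adjusted p of 0.0956. Of 19016 protein-coding MANE Select starts, 20.9% had a region in at most 1 library or none, so that such starts were not rare, and 68.0% had a region in all 8. The stretches at both SUN1 starts are shown because they differ in base composition, with a GC content of 76.7% upstream and 48.7% at the MANE Select start.
SUN1 upstream start (chr7:816465-816614, plus strand): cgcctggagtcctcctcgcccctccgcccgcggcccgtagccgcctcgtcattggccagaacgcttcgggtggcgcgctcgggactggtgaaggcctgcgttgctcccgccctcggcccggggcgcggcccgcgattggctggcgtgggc
SUN1 MANE Select start (chr7:832326-832475, plus strand): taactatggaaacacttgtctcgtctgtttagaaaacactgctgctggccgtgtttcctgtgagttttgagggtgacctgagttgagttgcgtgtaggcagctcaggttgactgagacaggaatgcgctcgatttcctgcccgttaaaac
These and all sequences below are GRCh38, 150 bp at the summit, with capitals only for a match to the CTCF core described further on.

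In CM against hESC, 3 of the 29 tested regions were called, 1 higher and 2 lower. That is 10.3%, beside a background of 12.3% of all tested regions (6.28% higher and 6.04% lower), so the genes did not stand out in number. The balance of directions depended on the setting: without centring 0 were called higher and 2 lower (0.459% and 6.53% of all regions), with the pileup over the lowest background 7 higher and 1 lower (17.2% and 7.74%), and with unlisted values set to the lowest fold of the library 5 higher and 10 lower of 72 (9.05% and 20.9%). The region called higher was an alternative promoter of LMNA, and those called lower lay upstream of LMNA and of RAD21.

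The LMNA region called higher (chr1:156106143-156107264) lies 8.01 kb upstream of the main promoter, over the starts of 6 LMNA transcripts of which 1 is protein-coding. Folds were hESC 3.87 and 3.33, MES 4.47 and 4.64, CP 4.78 and 5.33, and CM 4.46 and 6.30. Both CM values exceeded both hESC values, MES and CP lay between their means, and the CM minus hESC difference was 0.78 (SE 0.18, adjusted p = 0.0137 by limma). The printed stretch, whose GC content is 70.7%, ends just before the first of these starts and holds an SP/KLF box (GGGCGGG on either strand), which 49.1% of regions at MANE Select starts hold.
LMNA alternative promoter (chr1:156106452-156106601, plus strand): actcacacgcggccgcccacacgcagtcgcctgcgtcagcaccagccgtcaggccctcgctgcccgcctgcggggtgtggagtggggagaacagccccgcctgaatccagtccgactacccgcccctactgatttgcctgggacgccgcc

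The pair of LMNA promoters can be compared within a library, where no scaling between libraries enters. The log2 ratio of the upstream to the main promoter was, by stage, hESC -0.84 and -0.63, MES -0.37 and -0.54, CP -0.12 and -0.12, and CM -0.10 and 0.16. All CP and CM ratios lay above all hESC and MES ratios. The ratio is given as a description, with no test. Where peaks had to cover at least 50% of a region, the upstream promoter was no longer among the regions tested. The call at the upstream promoter was lost without centring (0.56, adjusted p = 0.123), without hESC replicate 2 (0.65, 0.132) and without CM replicate 2 (0.57, 0.134).

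Of the other LMNA starts, a region 11.6 kb downstream of the main promoter (chr1:156126083-156126565), at 6 transcript starts of which 4 are protein-coding, was listed in both CM libraries with folds of 3.54 and 4.05. It was also listed in CP replicate 2 with 4.09, in hESC replicate 2 with 2.39 and in MES replicate 2 with 2.27, and in no other library. A region 15.8 kb upstream (chr1:156098662-156099220) was listed only in MES, with 3.03 and 4.30, and in CP replicate 1, with 2.50. Regions 32.4 kb upstream (chr1:156081197-156083495), shared with the start of MEX3A, and 8.99 kb downstream (chr1:156123264-156124149) were listed in all 8. The first had folds of hESC 4.97 and 4.77, MES 5.12 and 5.85, CP 5.01 and 6.55, and CM 4.77 and 5.72, the second hESC 5.65 and 4.89, MES 5.40 and 4.77, CP 5.87 and 6.42, and CM 5.61 and 5.42, and neither was called (0.32, SE 0.16 and 0.29, SE 0.18). A last one, 8.11 kb downstream, was listed in hESC replicate 2 alone (2.15).

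The remaining alternative starts belonged to SUN1, SUN2 and LMNB1. A SUN1 start 1.57 kb upstream was listed in hESC replicate 1 alone, at 3.71. At SUN2, a start 38 kb upstream (chr22:38793623-38794440), which is also the start of DNAL4, had folds of hESC 9.52 and 10.7, MES 10.1 and 12.5, CP 7.66 and 12.6, and CM 8.62 and 10.1, with overlapping stages. A second SUN2 start, 1.35 kb downstream, was listed in hESC replicate 2 (3.06), both MES libraries (2.89 and 4.14) and CP replicate 2 (3.33), and in neither CM library.

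**Figure D3:**
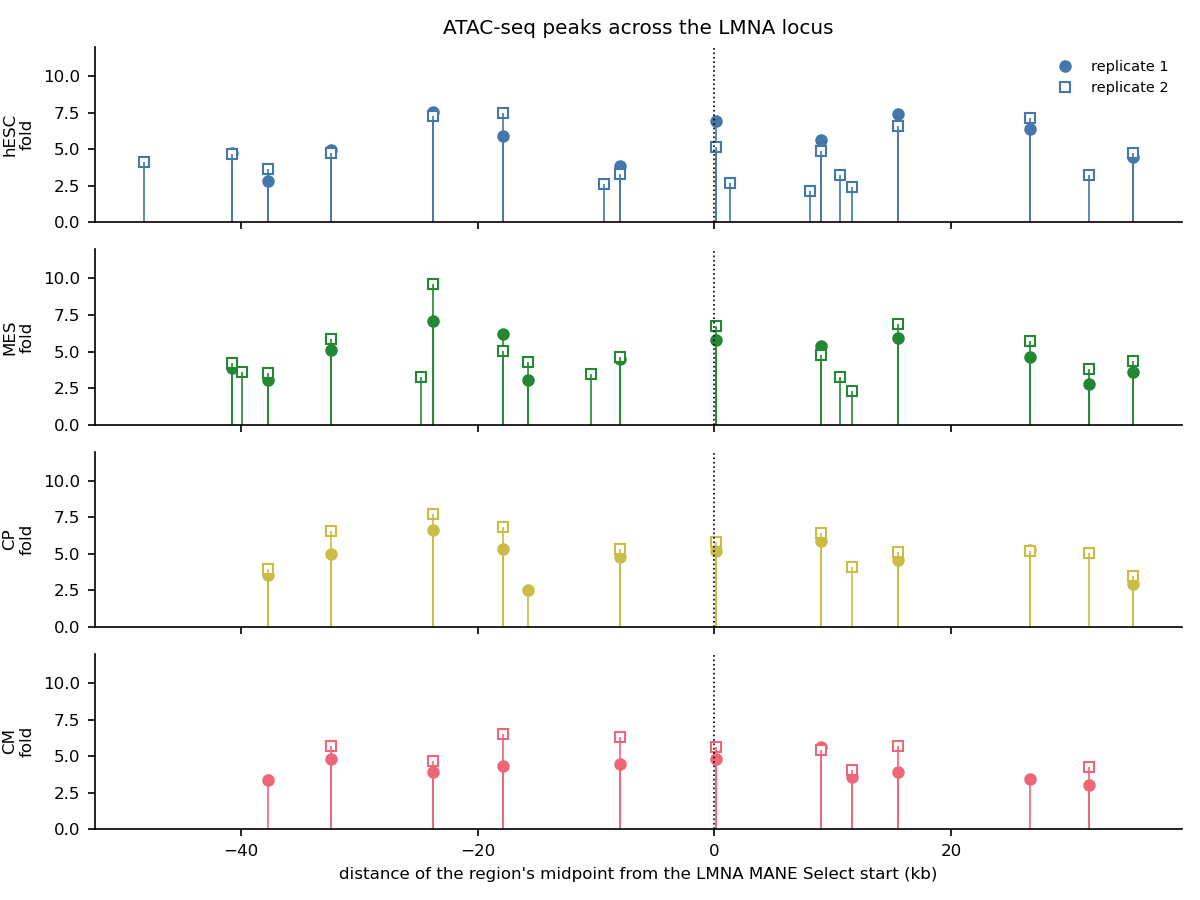
Fold over local background of each listed LMNA region (vertical axis) against the distance of its midpoint from the MANE Select start (kb, upstream to the left), one panel per stage; filled circles are replicate 1 and open squares replicate 2. The region at -8.01 kb is lowest in hESC and the one at -23.8 kb lowest in CM, with folds of 3.93 and 4.67 there.

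The LMNA region called lower (chr1:156090579-156091224) lies 23.8 kb upstream of the main promoter, inside longer LMNA transcripts. Folds were hESC 7.52 and 7.25, MES 7.12 and 9.61, CP 6.66 and 7.74, and CM 3.93 and 4.67, so that both CM values lay below all 6 others. The difference from hESC was -0.57 (SE 0.16, adjusted p = 0.0372). Its summit carries a CTCF core (CCA, 2 free bases, AG, 2 free bases and GGC, on either strand), which 4.33% of all merged regions carry within 100 bp of the summit. A neighbour 17.9 kb upstream of the main promoter (chr1:156096606-156097013) carries one too and is shown for comparison. It had hESC 5.94 and 7.46, MES 6.17 and 5.06, CP 5.33 and 6.82, and CM 4.29 and 6.48, its stages overlapped, and its difference was -0.12 (SE 0.20).
LMNA -23.8 kb (chr1:156090820-156090969, plus strand): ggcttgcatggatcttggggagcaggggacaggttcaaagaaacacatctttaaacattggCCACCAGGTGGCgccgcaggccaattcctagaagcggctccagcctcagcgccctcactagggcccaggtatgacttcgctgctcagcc
LMNA -17.9 kb (chr1:156096741-156096890, plus strand): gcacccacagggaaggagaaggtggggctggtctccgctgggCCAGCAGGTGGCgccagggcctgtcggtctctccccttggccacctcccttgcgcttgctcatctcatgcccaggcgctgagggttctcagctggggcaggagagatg

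The call at -23.8 kb was near the threshold. It was lost on leaving out hESC replicate 1 or 2 (adjusted p = 0.164 and 0.131), MES replicate 1 or 2 (0.0504 and 0.0520), or CM replicate 1 or 2 (0.131 and 0.0826), and with the lowest background of the library in the denominator (0.0648).

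The RAD21 region called lower (chr8:116887471-116887838) lies 12.9 kb upstream of the gene. Folds were hESC 10.4 and 9.97, MES 8.37 and 11.1, CP 6.41 and 9.52, and CM 4.13 and 6.22. Both hESC values exceeded both CM values, and on these uncentred folds the CM values also lay below every MES and CP value. After centring, on the log2 scale, CM replicate 2 (2.81) lay above CP replicate 1 (2.77). The difference was -0.79 (SE 0.18, adjusted p = 0.0128). Within each library, the log2 ratio to the RAD21 main promoter was, by stage, hESC -0.07 and -0.32, MES -0.36 and 0.06, CP -0.75 and -0.0037, and CM -1.32 and -0.82. Both CM ratios were the lowest, with CP replicate 1 close to CM replicate 2 and far from CP replicate 2. The call was lost without hESC replicate 1 (adjusted p = 0.0860), hESC replicate 2 (0.0603) or CM replicate 1 (0.0896), and with the lowest background of the library (0.0803). With lists cut to equal length, neither this region nor the upstream LMNA promoter remained in all 8 lists, and 1 call was left of 3.

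**Figure D4:**
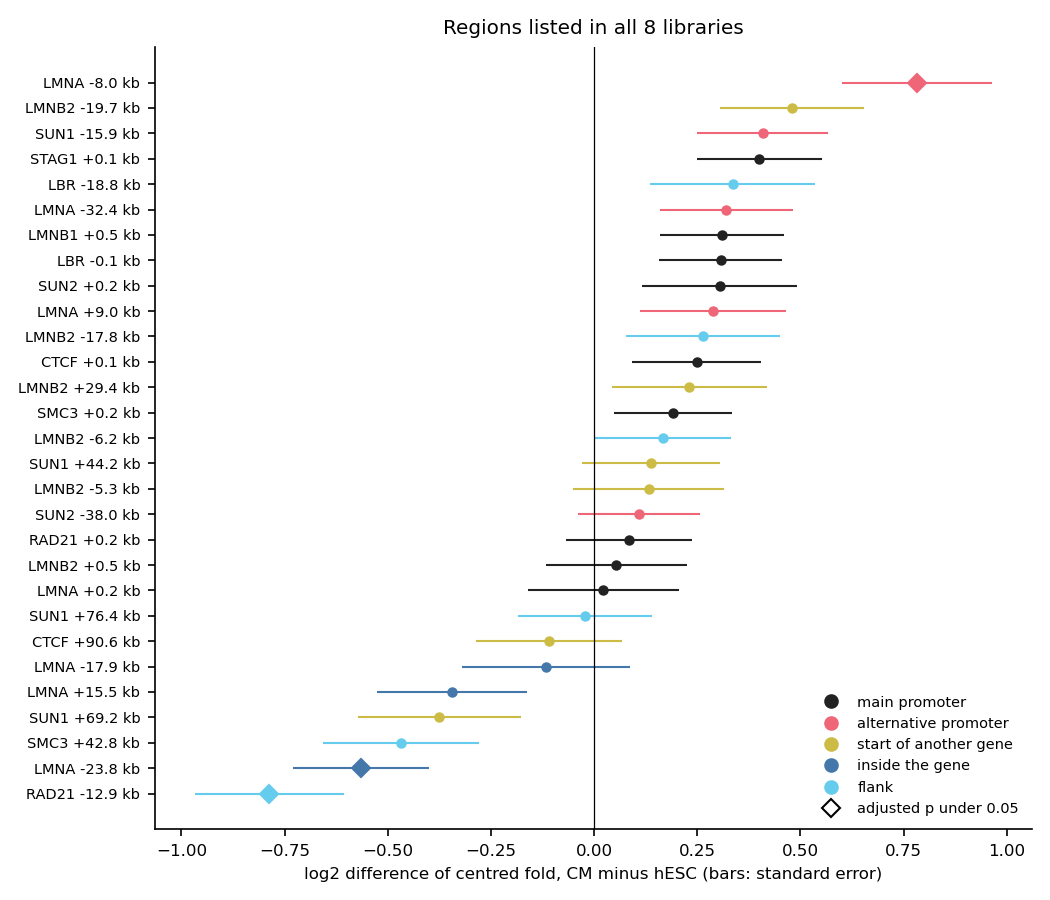
Difference in centred log2 fold, CM minus hESC (horizontal axis; bars are standard errors), for the 29 regions listed in all 8 libraries, labelled by gene and distance from the MANE Select start and coloured by class. Diamonds mark the 3 calls, at 0.78, -0.57 and -0.79; the 9 main promoters lie between 0.02 and 0.40.

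In the steps between neighbouring stages, limma called 0 of the 29 regions. MES against hESC had 2 at an unadjusted p under 0.05 and a lowest adjusted p of 0.0604 (background 0.871% called), CP against MES had 2 and 0.349 (0.455%), and CM against CP had 7 and 0.157 (2.1%). With the lowest background of the library in the denominator, MES against hESC had 1 call (2.57% of all regions) and the other steps 0 (2.56% and 5.21%). With unlisted values set to the lowest fold of the library, which adds regions to reach 72, the calls were 8, 6 and 4 (11.1%, 8.33% and 5.56%, against 22%, 15.8% and 8.5% of all regions).

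Regions that some libraries did not list were described by their listing and by overlap. In 103 regions listed in hESC or CM, both CM values lay above both hESC values in 8 (7.77%, background 7.45%) and below them in 27 (26.2%, background 30.8%), an unlisted value being counted as lower than any listed one. The folds compared were not centred, so the generally lower folds of the CM libraries enter these counts and their backgrounds. Both hESC libraries and neither CM library listed 12 regions (8.89%, background 13.5%), and both CM and neither hESC library listed 3 (2.22%, background 3.15%). The alternative promoters gave 4 above and 0 below of 10. The flanks gave 0 above and 13 below of 38. Regions inside the genes gave 2 above and 8 below of 33, main promoters 1 and 1 of 10, and starts of other genes 1 and 5 of 12. Shares over all regions of each class were not computed, so these splits are counts only and show no trait of the genes. The main promoter counted as below was that of LMNB2, whose centred CM minus hESC difference was 0.05 (SE 0.17). CM replicate 2 had the shortest list. In an alternative chosen after seeing the data, with lists cut to equal length, 7 lay above and 20 below of 60 regions (11.7% and 33.3%, against 14.8% and 32.0% of all regions). With 1 library left out, which leaves a single value on one side, the counts were 9 to 20 above and 29 to 60 below. Without hESC replicate 1 there were 10 above and 60 below of 97 (10.3% and 61.9%, against 9.26% and 66.6% of all regions), and without hESC replicate 2 there were 9 and 38 of 75 (12.0% and 50.7%, against 12.7% and 53.2%). Without CM replicate 1 there were 20 and 29 of 95 (21.1% and 30.5%, against 16.5% and 37.5%), and without CM replicate 2 there were 20 and 41 of 101 (19.8% and 40.6%, against 22.9% and 35.4%).

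Both libraries of 1 stage, and no other library, listed 7 regions (5.19%, background 7.55%). By stage these were hESC 2, MES 2, CP 1 and CM 2, where the background shares were 3.01%, 2.76%, 0.729% and 1.05%. Of the CM pair, one lies 34.7 kb downstream of the LMNB1 main promoter (chr5:126811555-126812120), with folds of 3.95 and 5.41, at the start of a non-coding LMNB1 transcript. The other (chr3:136343867-136344311) lies 408 kb downstream of the STAG1 start, with 6.10 and 5.37. Its summit is in coding exon 30 of STAG1 and its midpoint in intron 29. The LMNB1 stretch holds a GATA site (AGATAA, in 11.3% of all regions) and an AP-1 site (TGANTCA, in 8.06%), and is shown as the region of the B-type lamins that was listed in CM alone.
LMNB1 +34.7 kb (chr5:126811667-126811816, plus strand): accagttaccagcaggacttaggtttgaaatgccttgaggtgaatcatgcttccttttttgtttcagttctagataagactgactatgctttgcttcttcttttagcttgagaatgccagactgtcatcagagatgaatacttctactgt

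The hESC regions of this kind were one in a STAG1 intron (chr3:136353594-136353858; 5.81 and 4.98) and one at the start of TMPRSS9 in the flank of LMNB2 (chr19:2415612-2416127; 4.73 and 3.46). In MES they were one in RAD21 (chr8:116863571-116863905; 5.20 and 3.65) and one in a STAG1 intron (chr3:136567527-136567897; 5.43 and 3.65). The CP region was again in a STAG1 intron (chr3:136428232-136428553; 3.63 and 6.97). STAG1, by far the longest of the genes at 416168 bp, thus held 4 of the 7.

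The regions in this and the next paragraph were singled out after their values had been seen. Some were shared by neighbouring stages. A region 18.5 kb upstream of LMNB1 (chr5:126758327-126758856), inside the divergent non-coding transcript LMNB1-DT, had folds of 8.17 and 9.86 in MES and 4.51 and 5.11 in CP, and was listed in neither hESC nor CM. A region 62.4 kb downstream of the LMNB1 start (chr5:126839312-126839836) had 8.01 and 8.27 in hESC and 4.38 and 5.59 in MES, and was not listed later. The flanks of LMNB1 thus held regions of opposite order in hESC and MES, while the promoter between them stayed at 6.65 to 7.10 in these libraries.

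LBR showed MES values above those of its other stages in several places. Its main promoter went the other way, with both MES values (7.07 and 6.88) below all the others. Some other LBR regions, such as those 7.94 kb upstream and 20.9 kb downstream of the start, were listed in no MES library. An intronic region 18.8 kb downstream of its start (chr1:225409112-225409389) had 6.38 and 6.75 in MES and 4.32 in CP replicate 1, and another 2.6 kb downstream (chr1:225425176-225425699) had 3.97 and 3.90 in MES and 2.74 in CP replicate 1. Neither was listed elsewhere. A flanking region 18.8 kb upstream (chr1:225446010-225447695) was listed in all 8, with hESC 3.27 and 2.88, MES 5.91 and 6.09, CP 5.10 and 4.95, and CM 2.68 and 4.14. Both MES values exceeded all others on these uncentred folds, but after centring, on the log2 scale, CP replicate 1 (2.44) lay above MES replicate 2 (2.42). This region had the lowest adjusted p of MES against hESC given above, 0.0604.
LMNB1 -18.5 kb (chr5:126758558-126758707, plus strand): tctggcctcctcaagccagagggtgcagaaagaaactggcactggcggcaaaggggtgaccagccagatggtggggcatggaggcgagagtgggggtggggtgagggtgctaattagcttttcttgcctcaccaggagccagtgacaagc
LBR +18.8 kb (chr1:225409180-225409329, minus strand): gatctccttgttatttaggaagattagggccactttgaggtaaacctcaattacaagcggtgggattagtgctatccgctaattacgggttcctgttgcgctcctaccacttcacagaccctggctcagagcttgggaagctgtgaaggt
These stretches are shown as the ones with the highest MES folds among regions that neither hESC nor CM listed, and neither holds a CTCF core.

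**Figure D5:**
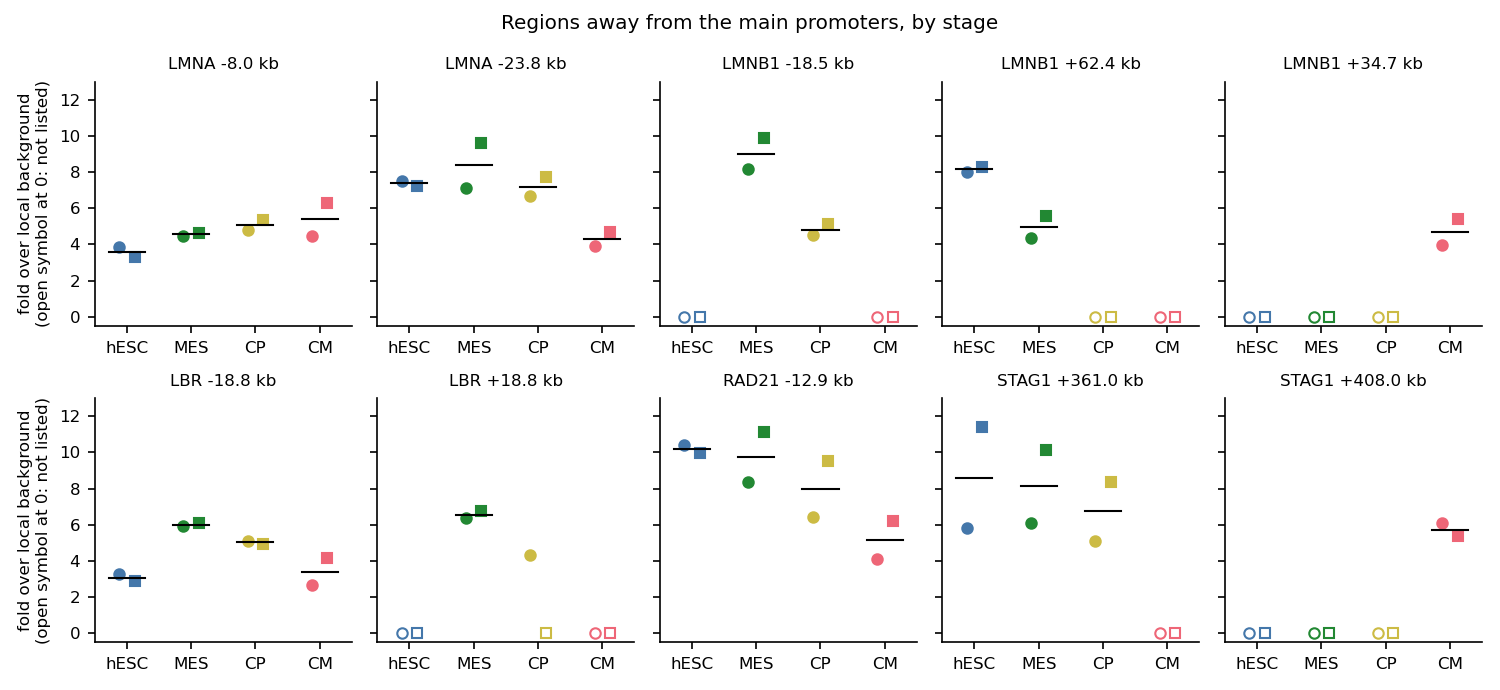
Fold over local background by stage in 10 regions away from the main promoters, labelled by gene and distance from the MANE Select start; circles are replicate 1, squares replicate 2, bars the mean where both are listed, and open symbols at 0 unlisted values. The LMNB1 region at -18.5 kb is listed in MES and CP only, with 8.17 and 9.86 in MES.

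The CTCF core was found in 9 of the 135 regions (6.67%, against 4.33% of all regions and 9.65% of those listed in all 8), and in none of the 10 main promoters. All 9 were among the 99 regions inside genes or in flanks. A shorter form without the first C, which includes every match of the longer one, was found in 17 (12.6%, against 8.41%), among them the RAD21 region called lower. A match shows only that the letters are present.

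Of 15 regions with the short core listed in hESC or CM, both CM values lay below both hESC values in 7 and above them in 0. Of the 88 without it, the numbers were 20 and 8. Over all merged regions the shares were 46.1% below and 4.13% above with the short core, and 29.2% and 7.80% without it, with the same order of shares as in the 10 genes. Among tested regions away from MANE Select starts, the median CM minus hESC difference was -0.14 in 2391 with the longer core, of which 11.3% were called lower and 1.46% higher, and -0.01 in 13724 without it, of which 9.68% were called lower and 6.69% higher.

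These regions too were singled out after their values had been seen. The 7 were the LMNA and RAD21 regions called lower, 1 in SUN1, 1 in STAG1, 2 at SMC3 and 1 upstream of CTCF itself. The CTCF region, 15.3 kb upstream (chr16:67546997-67547515), had folds of hESC 5.23 and 5.08, MES 3.72 and 6.57, CP 3.60 and 5.58, and CM replicate 1 3.06. The SMC3 region 10.5 kb upstream (chr10:110557038-110557403) had hESC folds of 6.37 and 9.04, MES folds of 7.73 and 6.34 and 4.53 in CP replicate 1, and was listed in neither CM library. The STAG1 intron region (chr3:136391627-136391977), 361 kb into the gene, had folds of hESC 5.81 and 11.4, MES 6.10 and 10.1, CP 5.13 and 8.36, and was also missing from both CM lists. In the STAG1 region replicate 2 exceeded replicate 1 at each of the 3 stages, by more than the means of these stages differed.
CTCF -15.3 kb (chr16:67547071-67547220, plus strand): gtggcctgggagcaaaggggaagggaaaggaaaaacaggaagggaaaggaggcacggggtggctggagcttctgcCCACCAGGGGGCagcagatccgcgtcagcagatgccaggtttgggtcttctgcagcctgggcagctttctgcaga
SMC3 -10.5 kb (chr10:110557136-110557285, plus strand): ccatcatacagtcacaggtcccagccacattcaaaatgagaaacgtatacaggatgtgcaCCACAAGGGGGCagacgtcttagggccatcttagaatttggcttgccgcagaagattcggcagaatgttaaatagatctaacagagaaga
STAG1 +361 kb (chr3:136391728-136391877, minus strand): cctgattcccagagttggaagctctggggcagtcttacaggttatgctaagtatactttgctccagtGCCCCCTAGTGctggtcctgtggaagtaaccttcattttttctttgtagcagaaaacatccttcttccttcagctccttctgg

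At the promoters themselves, the SP/KLF box was found in 7 of the 10 main promoter regions, against 49.1% of all regions at MANE Select starts. An NRF1 site (GCGC, 1 free base and TGCGC) was found at RAD21 and STAG1 (8.32% of MANE Select start regions hold it). Neither motif bears a test here.

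Partner genes of both systems were listed in much the same manner. All 18 genes of the nuclear envelope and lamina list, such as EMD (emerin) and TMPO, had a start region listed in all 8 libraries. In CM against hESC their median difference was 0.20, and 1 was called higher and 0 lower. Of all regions at MANE Select starts, 6.78% were called higher and 0.842% lower, so this count does not set the list apart. The gene called was ICMT, which methylates the tail of prelamin A and B-type lamins. Its folds were hESC 6.06 and 5.57, MES 8.60 and 8.57, CP 7.58 and 7.76, and CM 7.99 and 8.15. All 6 later values exceeded both hESC values, and the CM minus hESC difference was 0.69 (SE 0.16, adjusted p = 0.0119). In alternatives run for this gene after seeing the data, the call was lost without centring (0.47, adjusted p = 0.0951), with the lowest background of the library (0.21, 0.331), and without hESC replicate 2 (0.104), CM replicate 1 (0.0515) or CM replicate 2 (0.0581). With the lowest background of the library, 2 other genes of the list were called higher in its place, ZMPSTE24, the protease that trims prelamin A (0.59, adjusted p = 0.00318), and TPR of the nuclear pore basket (0.55, 0.0147), where 24.2% of all MANE Select start regions were.

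Of 19 cohesin and loop factors, among them NIPBL, the cohesin loader, and WAPL, its release factor, 16 were listed in all 8 libraries. In CM against hESC limma called 0 of these 16, with 3 at an unadjusted p under 0.05. With the lowest background of the library 3 were called higher, SMC1A (0.52), ESCO1 (0.67) and MAZ (0.44), beside the same 24.2%. With centred folds over local background their median difference was 0.23. Regions at MANE Select starts were called in 7.62%, 6.78% higher and 0.842% lower. In the other 3 comparisons limma called 0 of either list. In MES against hESC 1 lamina gene and 0 loop genes had an unadjusted p under 0.05, in CP against MES 0 and 0, and in CM against CP 2 and 5. Among regions at MANE Select starts, 0.05% (MES against hESC), 0.0333% (CP against MES) and 0.367% (CM against CP) were called. CTCFL, the germ line paralog of CTCF, was listed in 6 libraries at 2.39 to 3.86.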

How the data were processed

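ATAC-seq was measured in 8 libraries of RUES2 cells. The authors aligned read pairs to hg38 by BWA-MEM (BWA 0.7.13 in the submitters' processing notes) and retained primary alignments with a mapping quality over 30. Duplicates were taken out with Picard, and MACS2 2.1.0 was run on each library (q-value 0.01, shift of 100 bp, extension to 200 bp). Replicates were not pooled. The deposited lists give per peak a fold ratio of pileup to local background, a −log10 p-value and a −log10 q-value, and a display score derived from the q-value that was not used.

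Here, peaks were merged over the lists, the highest fold per region and library was kept, and the pileup was recovered from the fold and the −log10 p-value of each deposited peak. Read numbers assume a genome of 2.7 Gb. Regions were placed on GENCODE 44 (GRCh38) and log2 folds were fitted in limma 3.58.1 (R 4.3.3) over all 8 libraries, two-sided. Standard errors and adjusted p-values printed for regions come from this fit, and 2 libraries a stage allow no exact p below 0.333. A window of 200 bp at the summit was scanned for motifs on either strand. Scripts ran in Python 3.11.15 with scipy 1.17.1, pandas 2.3.3, numpy 2.4.6 and matplotlib 3.10.9.

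Values in all libraries are given for main promoters, alternative promoters, the called region of each gene elsewhere with non-overlapping values and the largest difference, and regions listed in a single stage. The genes, lists and tests were chosen with earlier results of these data known. Alternatives were no centring, quantile normalisation, lists of equal length, a stricter −log10 q of 5 or more, peaks covering at least 50% of a region, unlisted values at the lowest fold, the pileup over the lowest background, a replicate block, a flank of 5 kb and each library left out.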

Additional observations from a re-analysis of the deposited data

How the results depend on the processing

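Calls depended on how folds were scaled and on which regions entered. For CM against hESC, the 3 calls among the 10 genes became 1 with lists of equal length, 15 with unlisted values at the lowest fold and 8 with the pileup over the lowest background, and ranged from 0 to 5 on leaving out 1 library. All regions called, 3465, became 1966 without centring (129 higher and 1837 lower, against 1767 and 1698), 1228 with peaks covering 50%, 39523 with unlisted values at the lowest fold and 7006 with the pileup, and ranged from 964 to 4912. The promoter median was 0.028 without centring and 0.17 to 0.34 on leaving out 1 library. For MES against hESC, the calls among the 10 genes were 8 with unlisted values at the lowest fold, 1 with the pileup and 0 to 1 without a library. Of all regions, 245 became 53 without centring, 8 with equal lists, 19 with 50% cover, 29014 with unlisted values and 723 with the pileup, with 30 to 308 without a library, and the promoter median, -0.07, ran from -0.09 to -0.04 without a library but was 0.04 without centring and 0.04 with the pileup. For CP against MES, the genes had 6 calls with unlisted values and 0 to 0 without a library. All regions, 128, became 0 without centring, 71 with quantile normalisation, 83 at a −log10 q of 5, 5 with equal lists, 11 with 50% cover, 20879 with unlisted values and 719 with the pileup (12 to 359 without a library; promoter median 0.04 to 0.16, and -0.00077 with 50% cover). For CM against CP, the genes had 4 calls with unlisted values and 0 to 1 without a library. All regions, 591, became 984 without centring, 169 with 50% cover, 11212 with unlisted values and 1466 with the pileup (164 to 1243 without a library), and the promoter median was -0.056 without centring and 0.14 to 0.32 without a library. The cause of these changes was not tested. Filling in unlisted values also added regions to the fit. Equal lists left 42 regions each in hESC replicate 2 and MES replicate 2, and a flank of 5 kb left 87 regions in all. The main promoter differences near 0 changed sign. LMNA gave -0.20 without centring, -0.069 with 50% cover, -0.11 with the pileup, -0.21 and 0.26 without hESC replicate 2 and 1 in turn, and -0.059 without CM replicate 2. LMNB2 gave -0.17, -0.079 with the pileup and -0.060 without CM replicate 1, RAD21 gave -0.14, -0.015 with quantile normalisation and -0.0060 with 50% cover, and without centring SMC3 gave -0.029 and the shared SUN2 and DNAL4 start -0.11. Counts of regions of the genes whose CM values lay above or below both hESC values, 8 and 27, were recomputed after seeing the data: they were 7 and 27 at a −log10 q of 5 (7.61% and 29.3%, against 7.63% and 33.1% of all regions), 7 and 20 with equal lists (11.7% and 33.3%, against 14.8% and 32.0%), 7 and 26 with 50% cover (6.93% and 25.7%, against 6.43% and 28.3%), and ranged from 9 to 20 and from 29 to 60 without a library, where the shares of all regions were 9.26% to 22.9% and 35.4% to 66.6%. Replicate numbers were not taken as pairs, since the correlations of deviations between stages were 0.129 to 0.192 among hESC, MES and CP but -0.120 to 7.36e-05 with CM. With the replicate number as a block 3 regions of the genes and 3824 of all regions were called. The lists hold no read counts, so depth is known only through the recovered pileups.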
